A study of Homo sapiens with 5 samples.

Results

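The UGT2B genes encode UDP-glucuronosyltransferases, enzymes that attach glucuronic acid to steroids and other small lipophilic molecules. The 6 genes described here, UGT2B7, UGT2B10, UGT2B11, UGT2B15, UGT2B17 and UGT2B28, were taken by symbol from the 22889 genes of the expression table. All 6 were in the table, and 5 of them reached 1 FPKM (fragments per kilobase of transcript, scaled to library size) in at least 1 library, against 12916 genes in all. UGT2B7 did not.

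The data came from human prostate cancer cell lines that respond to androgen: LNCaP, from a lymph node metastasis, and VCaP, from a vertebral metastasis. RNA-seq came from 2 LNCaP libraries, one of cells transfected with a control siRNA and one of cells transfected with an siRNA against LSD1, the histone demethylase encoded by KDM1A. Chromatin immunoprecipitation gave 3 peak lists from cells without transfection: one for LSD1 in each line, and one in LNCaP for H3T6ph, the phosphorylated form of threonine 6 on histone H3. All cells had been kept for 3 days in hormone-depleted (charcoal-stripped) serum, and the labels do not say which hormone, if any, each sample then received. Each of these 5 groups was 1 sample, and replicate error is therefore unknown for every value.

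In the prostate, glucuronidation is a main step that makes androgens water-soluble and ends their action in the cell. UGT2B15 and UGT2B17 are the enzymes best known for conjugating dihydrotestosterone and its metabolites there. Their transcripts are known to be lowered by androgen in LNCaP cells, and the genes lie side by side with their relatives in a cluster on the long arm of chromosome 4. The series asks about LSD1 in androgen signalling. The comparison of the siRNA libraries shows what the RNA of these androgen-inactivating enzymes did when LSD1 RNA was low. KDM1A was at 37.0 FPKM under control siRNA and 6.87 FPKM under LSD1 siRNA, a log2 difference of -2.27. The RNA table carries no read totals. Its commonest ratio between the libraries, at 540 accessions taken to hold equal numbers of reads, put the LSD1 siRNA library at 77.3% of the depth of the control library. Accessions at that ratio had a median of 0.0698 FPKM in the control library and 0.0904 FPKM in the LSD1 siRNA library, which is the order of what a few reads are worth.

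The UGT2B genes did not move as a block. UGT2B11 and UGT2B28 were lower with LSD1 siRNA by more than 1.5-fold, the size at which a gene was called, and UGT2B15 and UGT2B17 were within 6% of their control levels. All differences are LSD1 siRNA minus control siRNA on the log2(FPKM + 1) scale, which understates the change of low genes. Of the 5 members at 1 FPKM or more, 2 were called lower and 0 higher, beside 2.41% of all genes called lower and 1.91% called higher. Of protein-coding genes alone 1.18% were called lower. At 2-fold 0 members were lower, beside 1.13% of all genes. The median difference of these 5 was -0.28, and that of all 12916 genes was -0.01. That -0.28 is the value of UGT2B10, which reached 1 FPKM only under control siRNA (1.41 against 0.983 FPKM). The filter alone thus favours a lower value for it, and the median describes no shift shared by the members. With 1 library per group there is no test of these differences. In bulk RNA, fewer cells that express a gene and less RNA per cell cannot be told apart.

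UGT2B17, which conjugates testosterone, dihydrotestosterone and their metabolites, had the highest listed level of the members. It stood at 76.4 FPKM under control siRNA and 80.8 FPKM under LSD1 siRNA, a difference of 0.08. UGT2B15, its close relative with much the same androgen substrates, stood at 70.1 and 73.9 FPKM, a difference of 0.07. The LSD1 siRNA value was the higher of the pair for both genes, by an amount that 67.3% of all genes lie at or below for UGT2B15 and 68.2% for UGT2B17. Together they made up 68.1% of the FPKM summed over the 6 members in the control library and 77.8% in the LSD1 siRNA library. Only 9.01% of the 12916 genes were as high as UGT2B17 in the control library.

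The values of UGT2B15 and UGT2B17 cannot be read as those of separate loci. The authors' table lists both at the same interval, bases 224704 to 249081 of an alternative haplotype contig of chromosome 4 in the hg19 build. The ratio of UGT2B17 to UGT2B15 was 1.09 in the control library and 1.09 in the LSD1 siRNA library. That interval is 24378 bases wide, beside a RefSeq gene width of 24056 bases for UGT2B15 and 39150 bases for UGT2B17 in GRCh38.p14. Reads from such similar transcripts can be assigned to either, so the sum is the safer measure. It was 146.6 FPKM under control siRNA and 154.7 FPKM under LSD1 siRNA, a log2 difference of 0.08. Of the 12916 genes 26.2% had an interval shared with another symbol. That count does not separate overlapping or neighbouring genes from distinct genes listed at the same place, as here.

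UGT2B11 was the most abundant of the members called lower. Its substrates are less well defined than those of its neighbours. It was listed at 61.8 FPKM under control siRNA and 39.8 FPKM under LSD1 siRNA, which is 64.4% of control and a log2 difference of -0.62. Of all 12916 genes 2.14% lay at or below that difference, and among the 7353 genes at 10 FPKM or more in the control library 3.17% were called lower. The authors' deposited table gives it a p of 0.00232 and a q of 0.163 and does not call it changed. Those p and q values come from 1 library per group and do not measure spread between replicates. The listed control level of UGT2B17 was 1.24 times that of UGT2B11, and with LSD1 siRNA it was 2.03 times. Both ratios rest on how reads were split between UGT2B15 and UGT2B17. UGT2B11 lies on the main chromosome 4 sequence of hg19 at 70066051 to 70080449.

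UGT2B28, an enzyme reported to act on androgens and oestrogens, showed a like difference at a much lower level. Its summed value was 5.36 FPKM under control siRNA and 3.15 FPKM under LSD1 siRNA, which is 58.8% of control and a log2 difference of -0.62. Which of UGT2B11 and UGT2B28 differed more depends on the pseudocount: at 0.1 FPKM the differences were -0.63 and -0.75. The table splits it into 2 transcripts at one interval (chromosome 4, 70146217 to 70160768, hg19). The accession NM_053039 was at 4.44 and 2.40 FPKM, and NM_001207004 at 0.914 and 0.752 FPKM. The difference was therefore mostly in NM_053039, at -0.68 against -0.13. For NM_053039 the authors' deposited table gives a p of 0.0147 and a q of 0.460, and for NM_001207004 a q near 1, with neither called. These p and q values come from 1 library per group. The ratio of UGT2B11 to UGT2B28 was 11.5 in the control library and 12.6 in the LSD1 siRNA library. Whether the 2 genes exchange reads was not tested, so their calls cannot be taken as separate observations. Summed with UGT2B10, they were at 68.6 FPKM under control siRNA and 43.9 FPKM under LSD1 siRNA, a log2 difference of -0.63.

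UGT2B10, known for conjugating nicotine and other amines, was near the minimum for comparison. It was at 1.41 FPKM under control siRNA and 0.983 FPKM under LSD1 siRNA, a difference of -0.28 that was not called. Nearly all of it came from NM_001075, which the table places on the haplotype contig over an interval of 5429 bases, while the RefSeq gene is 16030 bases wide. The other accession, NM_001144767, was at 0.00213 and 0 FPKM, over an interval of 16029 bases elsewhere on the contig. Which locus the reads of UGT2B10 came from is thus uncertain. UGT2B7, the major UGT2B enzyme of liver for morphine and several steroids, was at 0.144 and 0.210 FPKM in the control and LSD1 siRNA libraries. Its value in both is the order of a few reads, and no difference is drawn from it.

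**Figure D1:**
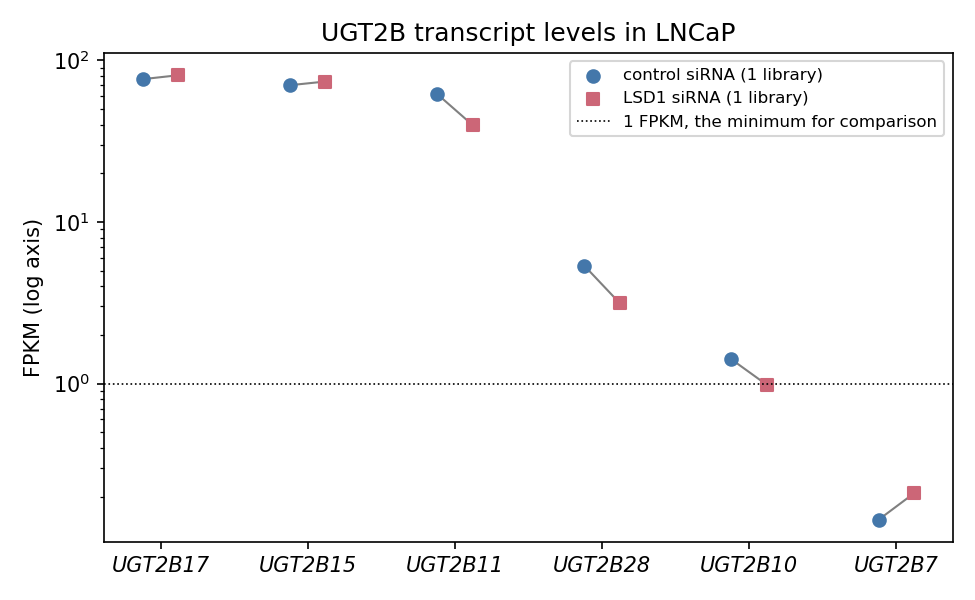
FPKM of the 6 UGT2B genes on a log axis, with a circle for the control siRNA library and a square for the LSD1 siRNA library (1 library each, so no error bars). UGT2B17 and UGT2B15 lie level between the libraries at 70.1 to 80.8 FPKM, UGT2B11 and UGT2B28 drop, and UGT2B7 stays under the dotted line at 1 FPKM.

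All 6 members summed to 215 and 199 FPKM, a log2 difference of -0.11, and the UGT2B15 and UGT2B17 pair holds most of that total. The plot of difference against level sets these values among the other protein-coding genes.

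**Figure D2:**
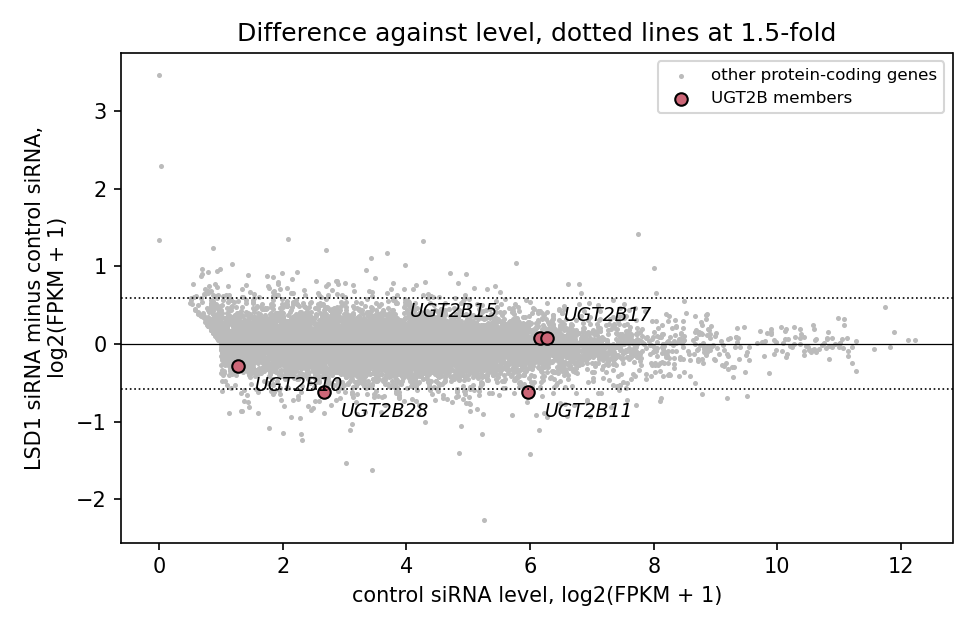
Each grey point is another protein-coding gene that reached 1 FPKM, with the control siRNA level on the horizontal axis and the difference between the libraries on the vertical axis, both as log2(FPKM + 1). UGT2B11 and UGT2B28 (red) sit just below the lower dotted line at 1.5-fold, at -0.62 each, while UGT2B15 and UGT2B17 sit beside 0.

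Other cell types were checked because UGT2B genes are best known from liver. All 7 luminal prostate markers examined were above 1 FPKM, and their summed level was 5080 FPKM under control siRNA and 4005 FPKM under LSD1 siRNA. All 7 were lower in value, with a median difference of -0.36, and 0 were called. One of them, FOLH1, was all but level (284 and 283 FPKM, -0.005). The lower luminal values share the sign of UGT2B11, UGT2B28 and UGT2B10, not that of UGT2B15 and UGT2B17. Their part in the calls of UGT2B11 and UGT2B28 was not tested. The 5 basal markers were all under 1 FPKM and summed to 0.785 and 1.28 FPKM in the same order. Of 7 hepatocyte markers TTR, a thyroid hormone carrier gene, passed 1 FPKM (2.68 and 3.52 FPKM). The remaining 6, among them the defining gene ALB at 0.0148 and 0.0384 FPKM, stayed at or under 0.509 FPKM. The sum of the hepatocyte list was 3.67 and 4.48 FPKM.

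Proximal promoter sequences are shown for the members that the RefSeq table holds, because 2 members with very unequal listed RNA levels have nearly the same letters there. Promoters of UGT2B10, UGT2B11, UGT2B15 and UGT2B7 matched by symbol, 4 of 6, and UGT2B17 and UGT2B28 were not in the table. Each line gives the 250 bases before the annotated start, 5′ to 3′ on the gene's own strand, with capitals at any match to the motifs searched.
UGT2B10: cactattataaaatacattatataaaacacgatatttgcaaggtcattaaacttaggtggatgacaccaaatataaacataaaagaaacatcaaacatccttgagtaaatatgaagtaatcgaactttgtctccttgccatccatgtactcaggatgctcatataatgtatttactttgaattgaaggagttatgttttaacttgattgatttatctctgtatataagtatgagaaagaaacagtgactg
UGT2B11: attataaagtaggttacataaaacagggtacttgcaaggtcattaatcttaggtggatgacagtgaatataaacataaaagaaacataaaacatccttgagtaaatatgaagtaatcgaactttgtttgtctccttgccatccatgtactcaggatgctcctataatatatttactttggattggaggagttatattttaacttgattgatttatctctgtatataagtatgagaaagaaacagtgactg
UGT2B15: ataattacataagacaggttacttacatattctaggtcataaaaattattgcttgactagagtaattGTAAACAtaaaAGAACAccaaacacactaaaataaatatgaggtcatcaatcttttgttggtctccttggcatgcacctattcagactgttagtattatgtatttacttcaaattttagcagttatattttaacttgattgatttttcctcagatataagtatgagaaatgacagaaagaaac
UGT2B7: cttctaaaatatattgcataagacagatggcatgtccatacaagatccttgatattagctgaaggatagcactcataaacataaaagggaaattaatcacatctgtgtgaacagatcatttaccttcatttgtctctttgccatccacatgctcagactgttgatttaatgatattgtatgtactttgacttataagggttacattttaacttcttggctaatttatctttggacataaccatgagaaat

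In GRCh38.p14 these windows are chr4:68815744-68815993 on the plus strand for UGT2B10 and chr4:69214749-69214998 on the minus strand for UGT2B11. They are chr4:68670653-68670902 on the minus strand for UGT2B15 and chr4:69096224-69096473 on the plus strand for UGT2B7. The UGT2B10 and UGT2B11 windows were identical at 229 of 254 aligned positions, or 90.2%. In the control library the listed level of UGT2B11 was 43.8 times that of UGT2B10, and 40.5 times with LSD1 siRNA. The source of the UGT2B10 reads is uncertain, as given above, and so are these ratios. The UGT2B15 window shared 71.3% of aligned positions with UGT2B11 and 70.5% with UGT2B10, and UGT2B7 was the most different, at 61.0 to 64.9%. All 4 windows were rich in A and T, with 28.4 to 32.8% G and C.

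The motifs were searched on both strands. UGT2B15 alone held a match to AGAACA, one arm of the androgen response element, 172 to 167 bases before the start, and a match to TGTTTAC, a forkhead factor motif, on the opposite strand 183 to 177 bases before the start. AGAACA was found in 12.4% of 35114 RefSeq promoters of the same length, and TGTTTAC in 2.98%. The full androgen element, AGAACA followed by 3 free bases and TGTTCT, was in none of the 4 windows and in 0.00285% of all promoters. A match is a description of the letters only.

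The rest of the pathway was read from lists. Of 16 other UGT genes, which include the UGT1A family, UGT2A genes and UGT2B4, only UGT8 reached 1 FPKM, at 4.63 and 3.78 FPKM (-0.24). UGT8 makes galactosylceramide and does not glucuronidate. The other 15 stayed at or under 0.722 FPKM, and the UGT1A genes share their last exons, so their values are uncertain. UGT2B15, UGT2B17 and UGT2B11 were therefore the only glucuronosyltransferase genes of these lists above 10 FPKM in these libraries.

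Of the genes listed around UDP-glucuronic acid, the sugar donor, most were expressed and none was called. The exception was SLC35D1, of the nucleotide sugar transporter family, at 0.0145 FPKM under control siRNA and 0.0376 FPKM under LSD1 siRNA. Of 7, 6 reached 1 FPKM, with 0 called lower, 0 called higher and a median difference of -0.09. UGDH, which makes UDP-glucuronic acid, was at 27.6 and 26.1 FPKM, and UGP2, which makes its precursor UDP-glucose, at 26.9 and 26.5 FPKM. UXS1, which turns UDP-glucuronic acid into UDP-xylose, had the lowest difference of the list (15.3 and 12.5 FPKM, -0.27). SLC35D2 (17.8 and 14.7 FPKM) and SLC35B1 (54.3 and 50.4 FPKM), members of the nucleotide sugar transporter family, were also lower in value. GUSB, the lysosomal enzyme that removes glucuronic acid, had the highest difference (23.7 and 27.3 FPKM, 0.20).

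Sulfation is the other main conjugation route for steroids. Of 13 listed genes 4 reached 1 FPKM, 0 were called in either direction and the median difference was 0.16. SULT2B1, a sulfotransferase for cholesterol and other 3-beta-hydroxysteroids, was at 5.96 and 8.25 FPKM (0.41). SULT1A1, a phenol sulfotransferase, was at 20.8 and 24.2 FPKM, and the steroid sulfatase gene STS at 3.90 and 4.27 FPKM. PAPSS1, which makes the sulfate donor, was at 35.0 and 31.5 FPKM.

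Transcription factors reported to act at UGT2B genes gave 5 of 11 at 1 FPKM or more, with 0 called. FOXA1, a forkhead factor of the luminal lineage, was at 163 and 137 FPKM (-0.25). POU2F1 (6.26 and 6.30 FPKM), an octamer-binding factor, differed by 0.01. The xenobiotic receptor gene NR1I3 was at 2.24 and 2.98 FPKM, NFE2L2, the oxidative stress factor gene, at 36.1 and 33.6 FPKM, and the lipid sensor gene PPARA at 3.49 and 3.11 FPKM. The median difference of the list was -0.10.

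**Figure D3:**
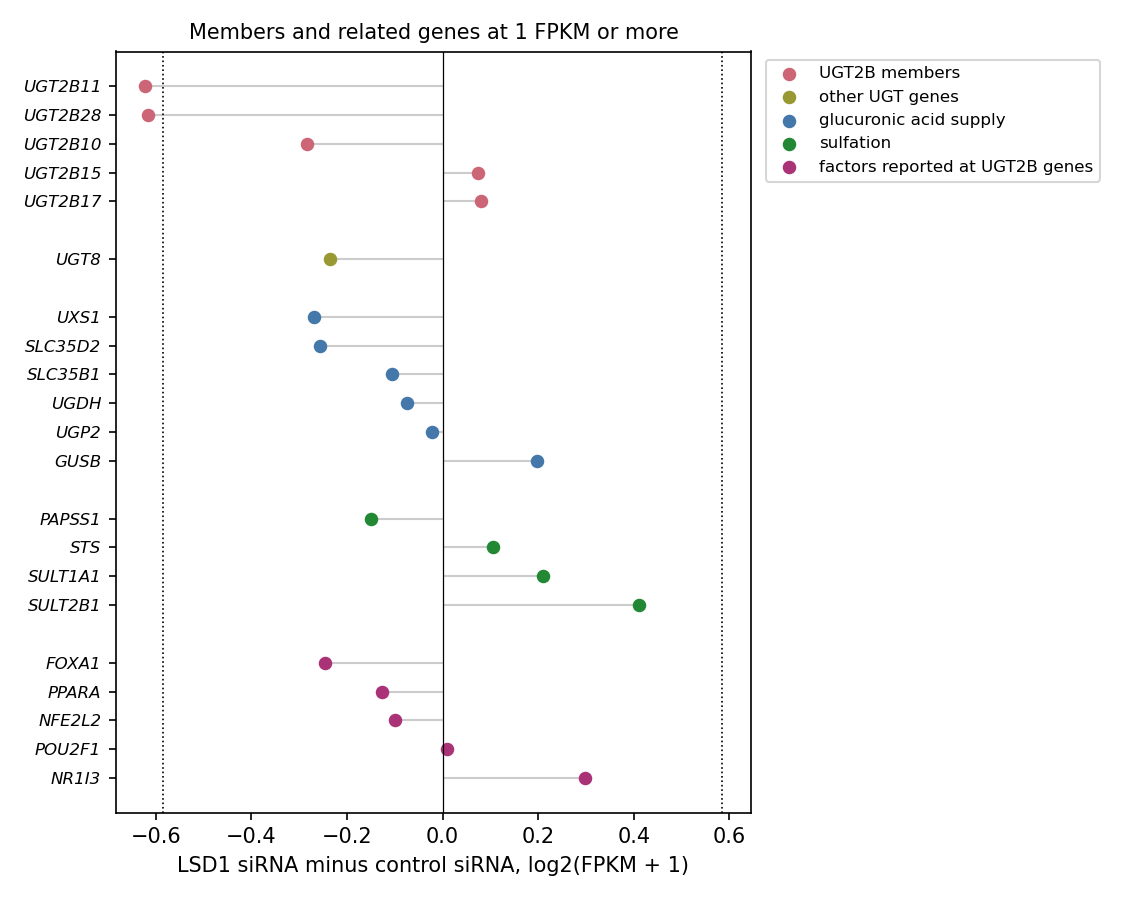
Difference between the LSD1 siRNA and control siRNA libraries, as log2(FPKM + 1), for each member and each related gene at 1 FPKM or more, coloured by list, with dotted lines at 1.5-fold. UGT2B11 and UGT2B28 are the only points past a dotted line, and UGT2B10 at -0.28 is the next lowest.

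For UGT2B17 the protein-coding genes with the nearest pair of values, by Euclidean distance over log2(FPKM + 1) in the 2 libraries, were PPP1CA (75.9 and 81.2 FPKM, distance 0.01), CTSZ (75.5 and 79.5 FPKM, 0.03) and TSPO (78.2 and 80.2 FPKM, 0.04). With 2 libraries this likeness describes a level and a difference only. The level of UGT2B17 also rests on how reads were split between it and UGT2B15.

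The peak lists were then read over the cluster. They hold no entry on the haplotype contig, where the table places UGT2B15, UGT2B17 and UGT2B10. Peaks near UGT2B15, UGT2B17 and UGT2B10 on the main chromosome were not measured. Distances were taken for UGT2B7, UGT2B11 and UGT2B28 alone. None of the 3 genes with distances had a peak of any list within 20 kb. By that rule 41.7% of genes at 1 FPKM or more had an LNCaP LSD1 peak, 41.7% a VCaP LSD1 peak and 18.1% an H3T6ph peak. UGT2B7, under 1 FPKM, is not among the genes of these shares. UGT2B28 had the closest peak, the only one of any list within 50 kb of these 3 genes, where 56.4% of genes had a peak of that list. It was a VCaP LSD1 peak 25.8 kb past its high-coordinate end (70186560 to 70187523 on chromosome 4, hg19, as are all peak positions). The nearest LNCaP LSD1 peak to UGT2B28 was 93.9 kb away, and to UGT2B11 174 kb away. For H3T6ph the nearest peak was 136 kb from UGT2B28 and 216 kb from UGT2B11. UGT2B7 (69962193 to 69978705), on the low side of both, had its nearest LNCaP LSD1 peak at 190 kb.

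Across the cluster, taken from TMPRSS11B to SULT1B1 (69111413 to 70592685, 1.48 Mb), there were 7 LNCaP LSD1 peaks, 4 VCaP LSD1 peaks and 2 H3T6ph peaks. The window is 0.775% of the chromosome. It held 1.21% of the LNCaP LSD1 peaks of chromosome 4, with a 95% Wilson interval of 0.588 to 2.48%, which covers counting error only. The shares were 1.04% (0.404 to 2.63%) for VCaP LSD1 and 1.18% (0.325 to 4.21%) for H3T6ph. All 3 intervals include the share of the chromosome that the window takes up. This did not hold for LNCaP LSD1 in a shorter window, added after seeing the data, from UGT2B7 to UGT2A1 (69962193 to 70518967). That window is 0.291% of the chromosome and held 5 LNCaP LSD1 peaks, 0.865% of those on chromosome 4, with an interval of 0.370 to 2.01% that lies above it. The density there was 8.98 peaks per Mb, beside 3.03 over the chromosome. Because this window was chosen after seeing the data, its interval cannot decide whether LNCaP LSD1 peaks are denser there. For VCaP LSD1 (2 peaks, 0.142 to 1.87%) and H3T6ph (1 peak, 0.105 to 3.28%) the intervals included the share.

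One site was in all 3 lists, and it stood out by score in H3T6ph and VCaP LSD1 but not in LNCaP LSD1. It lies between UGT2B28 and UGT2B4, a stretch that in the RefSeq gene order holds the pseudogenes UGT2B25P and UGT2B24P. The H3T6ph peak (70296537 to 70296862) had a score of 233, a level that 1.19% of the list reach or exceed. The VCaP LSD1 peak (70296353 to 70297115) had a score of 210 (1.06% of its list), and the LNCaP LSD1 peak (70296501 to 70296897) a score of 62.1 (60.7% of its list). Scores are the authors' and rank peaks within 1 list only. The site is 136 kb from UGT2B28 and 49.0 kb from UGT2B4, which was at 0.271 and 0.0825 FPKM. It is 1 of 336 H3T6ph peaks, 7.53% of the list, that overlap both LSD1 lists.

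The remaining peaks were each in a single list. LNCaP LSD1 had a peak at 70274015 to 70274545, which 4.02% of its list match or exceed by score (135), and a weaker one at 70254686 to 70255235, both also between UGT2B28 and UGT2B4. A further 2 lay inside the shared interval of UGT2A1 and UGT2A2, genes listed at or near 0 FPKM. On the low side of UGT2B7, LNCaP LSD1 peaks lay at 69428868 to 69429494 (score 91.7) and 69771363 to 69772014 (score 52.3). VCaP LSD1 had a peak in that same stretch at 69150587 to 69151258 and another 7.72 kb from SULT1B1, and H3T6ph had one at 69190613 to 69190942 (score 60.7). The table lists no gene of the main chromosome between TMPRSS11B and UGT2B7, and in the RefSeq order UGT2B17, UGT2B15, UGT2B10 and UGT2A3 lie there. Whether any of these peaks is near one of these genes was not measured here.

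**Figure D4:**
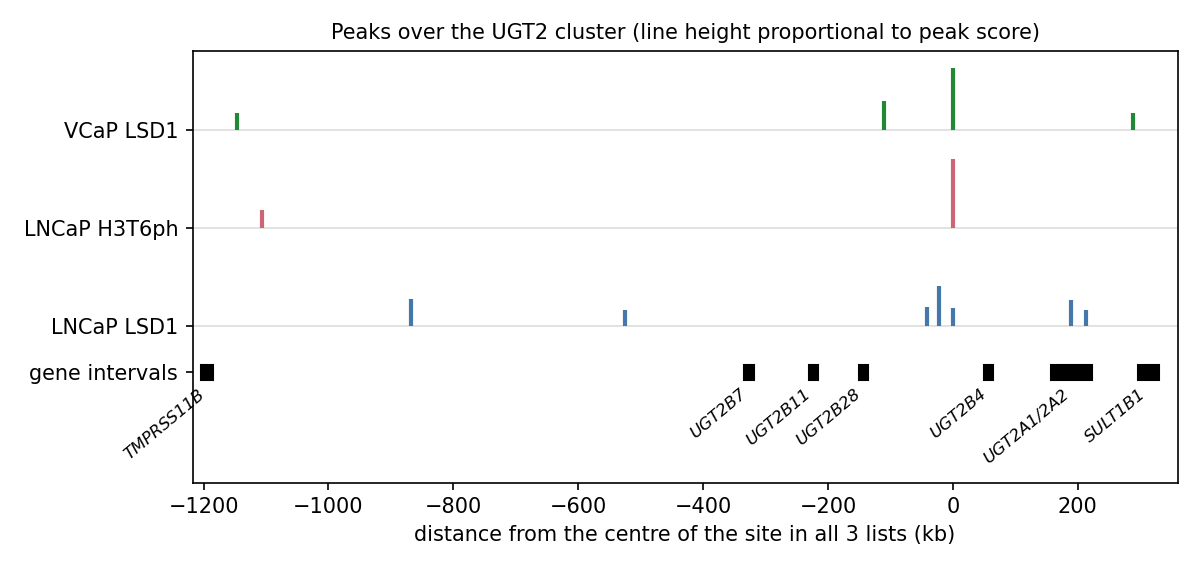
Peaks of the 3 lists over the UGT2 cluster as vertical lines, placed by their distance in kb from the centre of the site in all 3 lists, with heights proportional to the authors' score and black boxes for gene intervals of the table on the main chromosome. No line stands over UGT2B7, UGT2B11 or UGT2B28, and the tallest H3T6ph (233) and VCaP LSD1 (210) lines fall at 0, between UGT2B28 and UGT2B4.

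The contig at which UGT2B15, UGT2B17 and UGT2B10 are listed had 6 listed genes in all. YTHDC1, an RNA-binding protein gene, was at 23.2 and 22.0 FPKM (-0.08), and UGT2A3 was at or near 0. TMPRSS11E, a serine protease gene named here after its values were seen, was the one gene of the stretch called higher, at 2.57 FPKM under control siRNA and 4.68 FPKM under LSD1 siRNA (0.67). The authors' deposited table gives TMPRSS11E a q of 0.249. The genes listed on the contig thus had differences of either sign.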

How the data were processed

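RNA values are FPKM per RefSeq accession, deposited by the authors in a table laid out as Cuffdiff output (per the file headers). The submitters' processing notes name TopHat2 2.0.4, Cuffdiff 2.0.1, Bowtie2 2.0.0, MACS2 and hg19. The p-value and q-value of each accession are the authors' deposited ones. Peak lists were deposited by the authors with a score per peak, none under 50, on a scale that the file does not state. Nothing used here states duplicate handling, control tracks or library scaling, and the RNA kit named in the labels' protocols (TruSeq RNA v2) does not mark strand.

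Accessions were matched to symbols through RefSeq (GRCh38.p14) for 38934 of 40253, and FPKM were summed by symbol, leaving out 42 genes with a failed accession. Genes that reached 1 FPKM in a library were compared on log2(FPKM + 1), and called at 1.5-fold. Near-identical members can exchange reads. Table starts were read as 0-based and printed 1-based. Peaks overlapped at 1 shared base or more. Named genes were the members, the listed families, KDM1A and the 3 nearest genes to the most abundant member. The calling code was tested on simulated data (Python 3.11.15, pandas 2.3.3, biopython 1.88). The members and lists were chosen with earlier results of these data known. Some genes and 1 motif of the lists are not reported here. The cluster window was set after the coordinates were seen. Alternatives are in the closing section.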

Additional observations from a re-analysis of the deposited data

How the results depend on the processing

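No paired analysis was possible because each group is 1 sample. The differences of the 5 members at 1 FPKM or more kept their direction and their side of 1.5-fold under a pseudocount of 0.1 or 0.5 FPKM, the highest accession alone and centring on the median of all genes. Over these settings UGT2B11 ranged from -0.63 to -0.61 and UGT2B28 from -0.75 to -0.60. At 2-fold the count of members called lower was 0 in place of 2, where 1.13% of all genes were called lower. Both calls thus depend on the fold chosen. Among genes at 10 FPKM or more in the control library the count was 1, because that filter leaves out UGT2B28 (5.36 FPKM). Within 50 kb, 1 of the 3 genes with distances (UGT2B28) had a VCaP LSD1 peak, where 56.4% of genes had one. Among peaks at or above the median score of their list, the cluster held 3 LNCaP LSD1, 2 VCaP LSD1 and 1 H3T6ph peaks. From UGT2B7 to UGT2A1, a window added after seeing the data, it held 5, 2 and 1 in the same order. The interval for LNCaP LSD1 (0.370 to 2.01%) then lay above the 0.291% of the chromosome that the window takes up. No conclusion on density is drawn from it, because the window was chosen with the data known. With overlap of at least 50% of each peak, 0 H3T6ph peaks of the cluster met both LSD1 lists, in place of 1. This is because the VCaP peak at the site in all 3 lists is 763 bases wide and the H3T6ph peak 326. The table without counts limits precision to what 1 library of each kind shows.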
